A study of Mus musculus with 273 samples.

Results

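The right cortex of male wild-type mice was sampled around the clock, and every microRNA (miRNA) hairpin in it was tested for a 24 h rhythm. The cortex libraries number 78 of the 273 small RNA libraries in the series, which also holds 72 of hypothalamus, 46 of right striatum and 77 of liver. All of the animals were C57BL/6J males aged 26 weeks with no treatment named, and the cortex libraries carry 78 different animal numbers, so each animal gave 1 time point. Cortex was taken every 3 h from 0 to 36 h, with 6 libraries at each of 13 time points. Zeitgeber time (ZT) is the time point modulo 24 h. ZT0, ZT3, ZT6, ZT9 and ZT12 were each met again 24 h later and hold 12 libraries, while ZT15, ZT18 and ZT21 hold 6. The labels do not state the lighting schedule; ZT0 conventionally means lights on.

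The mammalian clock is a feedback loop in which CLOCK and BMAL1 drive the Period and Cryptochrome genes, whose proteins then repress them. miRNAs are cut from hairpin precursors by Drosha and Dicer, and the mature strand guides Argonaute to messenger RNAs through its seed, bases 2 to 8. Some miRNAs, miR-132 and miR-219 among them, are known to act on clock timing in the suprachiasmatic nucleus of the hypothalamus. Cortex is not the pacemaker, but it holds local clocks and its neurons follow sleep and wakefulness. A rhythm in a mature miRNA depends on its turnover as well as its transcription, since many mature miRNAs are long-lived.

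The deposited values are counts per hairpin, so both arms of a hairpin are added. Cortex libraries held 1164449 to 4980887 counts, with a median of 3119450. Levels are given as CPM, in which each library is scaled to the same total. Where a hairpin had 0 counts, its level may still be as high as 3 counts, or 0.602 to 2.58 CPM at these depths. These limits cover counting error only. A 24 h curve took 0.554% of the variance of the log2 library total (p = 0.811 by a permutation test with 100000 draws). Depth was not even over the day, since the median total was 1842410 counts at ZT15 and 2532680 to 3539150 at the other ZTs. A dip at 1 ZT need not show in a 24 h curve. No 2 libraries of a time point were identical among 195 pairs. The libraries of ZT0 replicate 1, ZT9 replicate 9 and ZT15 replicate 1 stood apart from the cortex median profile by more than 3 median absolute deviations, with correlations of 0.975, 0.976 and 0.976. Neuronal hairpins summed to 21554 to 42971 CPM over the 78 libraries, and miR-132, a neuronal activity-induced miRNA, was present in all of them. In tissue of mixed cells, fewer cells of a type and less RNA per cell cannot be told apart.

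The sequences below belong to the hairpins that the results turn on. The hairpin of miR-5099 is shown because it alone passed the test, and it is printed without a marked seed because the RefSeq table used here lists its precursor only (GRCm38.p6, chr12:36816205-36816278, plus strand). GENCODE annotates the miRNA itself there and no other gene. Among 141767 GENCODE transcripts, none but its own held any of its 55 windows of 20 bases on either strand. Only exact matches were sought, and RNAs outside that annotation were not searched, so another source of the reads was not tested.
miR-5099 hairpin: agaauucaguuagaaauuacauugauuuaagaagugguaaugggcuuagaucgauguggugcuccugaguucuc

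The next group, also from RefSeq, is shown because its members had the largest fitted curves in cortex and a shared profile across libraries. Capitals mark the seed. miR-200b, miR-200c and miR-429 share the seed AAUACUG, while miR-200a and miR-141 share AACACUG.
miR-200b-3p: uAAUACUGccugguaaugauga
miR-200c-3p: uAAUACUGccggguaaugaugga
miR-429-3p: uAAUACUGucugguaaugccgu
miR-200a-3p: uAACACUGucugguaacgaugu
miR-141-3p: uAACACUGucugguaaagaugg
The miR-183 cluster lies on chromosome 6, and its 3 members have near-identical seeds.
miR-182-5p: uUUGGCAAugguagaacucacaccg
miR-96-5p: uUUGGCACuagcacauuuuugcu
miR-183-5p: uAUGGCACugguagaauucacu
miR-211 is shown beside miR-204, the miRNA of choroid plexus and pigment epithelium with which it shares the seed UCCCUUU.
miR-211-5p: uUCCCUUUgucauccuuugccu
miR-204-5p: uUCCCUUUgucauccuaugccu

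A single hairpin, miR-5099, varied with a 24 h rhythm in cortex. Of 1226 hairpins in the table, 287 had no count in cortex and 393 passed the filter on low counts and were tested for a 24 h cosine plus sine (edgeR, quasi-likelihood F test). After Benjamini-Hochberg adjustment over the 393, 1 had an adjusted p under 0.05, which is 0.254% of those tested. A further 15 had an unadjusted p under 0.05. The 16 together make 4.07%, and 19.65 would be expected by chance. In this fit the count at the unadjusted threshold was thus below the number that chance gives. Other fits differed. Over the same 393 the count was 13 with limma voom and 22 with elapsed time as a term. It was 39 with a term for times from 24 h on (passage). With the replicate number as a block it was 55, and with ZT as a factor 59. In 0 to 21 h alone it was 46 (18.55 expected by chance), and in 15 to 36 h alone 57 (19.4 expected). What raised these counts was not tested. DESeq2 called 8 hairpins (2.04%), miR-5099 with miR-96, miR-182, miR-183, miR-200b, miR-200c, miR-211 and miR-429. All but miR-5099 had an adjusted p of 0.0456 there, just under the threshold.

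The level of miR-5099 was highest between ZT6 and ZT12 and lowest from ZT18 to ZT0. The log2 ratio of peak over trough in the fitted curve was 0.57 ± 0.08 (SE, n = 78), or 1.48-fold, with a 95% range from 0.37 to 0.76. The fitted peak fell at ZT8.38 (SE 0.503 h), and the adjusted p was 8.067e-07 in edgeR. The hairpin is of middling abundance, with a mean of 82.3 CPM that ranks it 197th of the tested hairpins.

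The time points below are given as the lowest, the median and the highest of 6 libraries. At 0 h miR-5099 stood at 61.8, 64.3 and 75.7 CPM, at 3 h at 73.8, 83.3 and 112.5, and at 6 h at 73.1, 103.5 and 113.6. At 9 h it stood at 88.0, 93.8 and 98.9 CPM, and at 12 h at 83.7, 90.8 and 99.99. At 15 h it stood at 59.0, 71.2 and 103.7 CPM, at 18 h at 61.5, 67.7 and 82.9, and at 21 h at 48.2, 65.9 and 77.1. The medians thus were higher from 3 to 12 h than at 0 h and were back near the starting level by 18 h.

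The same times 24 h later gave a similar course, low at 24 h and high from 27 to 36 h. At 24 h miR-5099 stood at 55.2, 68.6 and 74.7 CPM, at 27 h at 69.4, 86.3 and 111.3, and at 30 h at 55.7, 92.9 and 99.7. At 33 h it stood at 42.6, 91.9 and 108.3 CPM, and at 36 h at 89.9, 94.0 and 110.9. Within their time points 2 libraries were low for their time, ZT9 replicate 9 (33 h) with 42.6 CPM and ZT6 replicate 10 (30 h) with 55.7 CPM.

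ZT12 did not overlap the low ZTs, while ZT3, ZT6 and ZT9 did. All 12 libraries of ZT12 (83.7 to 110.9 CPM) lay above all 12 of ZT0 (55.2 to 75.7), all 6 of ZT18 (61.5 to 82.9) and all 6 of ZT21 (48.2 to 77.1). Of the 48 libraries of ZT3 to ZT12, 39 lay above the highest of the 24 at ZT0, ZT18 and ZT21, which was 82.9 CPM. The other 9 ranged from 42.6 to 82.4 CPM, and 6 of them were of ZT3, the time at which the level was between trough and crest. ZT15 held 1 high library, replicate 2, at 103.7 CPM, and its other 5 lay under the lowest of ZT12.

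**Figure D1:**
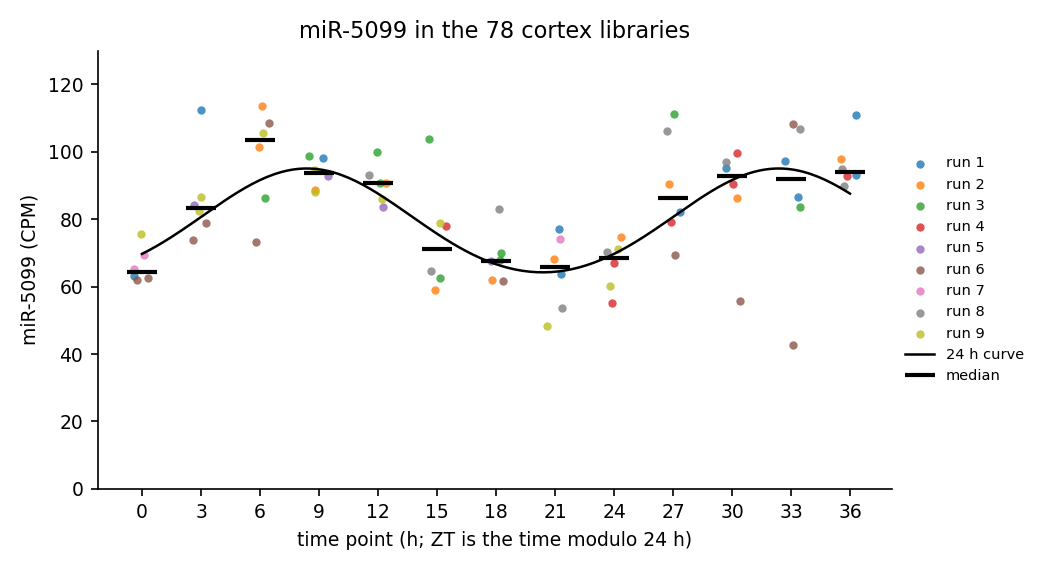
miR-5099 in CPM (y axis) by time point in h (x axis), with a dot for each of 78 cortex libraries coloured by library run, a bar for the median of each time point and the fitted 24 h curve as a line. Medians lie between 64.3 and 71.2 CPM at 0, 15, 18, 21 and 24 h and between 83.3 and 103.5 CPM at the other times.

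Both passages of the day carried the curve. In 0 to 21 h alone the ratio of miR-5099 was 0.63 with its peak at ZT8.04 (adjusted p = 9.921e-07 by edgeR over 371 hairpins), and in 15 to 36 h alone it was 0.52 at ZT8.80 (adjusted p = 0.0185 over 388). The fits of these time ranges called 6 (1.62%) and 5 hairpins (1.29%), and miR-5099 was the only hairpin called in both. These subsets share the 18 libraries of 15 to 21 h, so they are not independent. The labels also place the cortex libraries in 9 runs of consecutive library numbers with 1 shared code, whose meaning is not stated. The runs held libraries of 2 to 8 ZTs each, and mean miR-5099 levels by run lay between 69.6 and 89.1 CPM.

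Within each of the 7 runs with at least 6 libraries, the fitted log2 ratio was 0.29 to 0.85 and the peak lay between ZT6.68 and ZT9.16. The lowest ratio, 0.29, came from run 6 (n = 11), which holds both of the low libraries of 30 and 33 h. The highest, 0.85, came from run 4 (n = 7). With run as a term in the fit of all 78 libraries the ratio was 0.60, the peak ZT7.96 and the adjusted p 5.128e-07 by edgeR. A permutation test of miR-5099 alone, in which the curve took 39.6% of the variance of log2 CPM, gave p = 1e-05, the smallest that 100000 draws can give. With times permuted within runs the share was 44.6% and p was again 1e-05. miR-5099 was chosen for these permutation tests because it had passed in the same libraries. Neither p allows for that choice, so they check the count model and are not independent evidence of a rhythm.

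**Figure D2:**
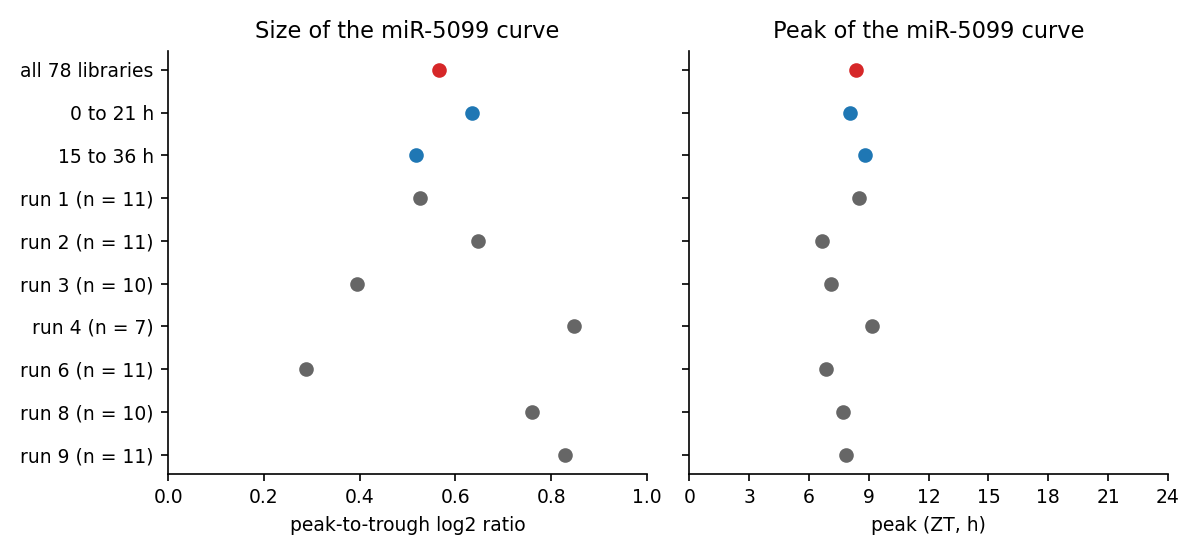
Peak-to-trough log2 ratio (left, x axis) and peak in ZT hours (right, x axis) of the miR-5099 curve in all 78 cortex libraries, in the time ranges 0 to 21 h and 15 to 36 h, and within each run of at least 6 libraries (n beside the run). Every subset has a ratio between 0.29 and 0.85 and a peak between ZT6.68 and ZT9.16.

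No single library carried the call. With each of the 78 left out in turn, the adjusted p of miR-5099 ran from 7.148e-09, without ZT9 replicate 9, to 3.497e-06, without ZT21 replicate 6, and its ratio from 0.54 to 0.59. A 12 h curve for miR-5099 had a log2 ratio of 0.16 (adjusted p = 0.483 by edgeR over 393 hairpins). Across the 393 hairpins the 12 h test called 0 (0%), with 52 (13.2%) at an unadjusted p under 0.05.

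Few hairpins had a profile across libraries like that of miR-5099. Over the 78 libraries and 306 other hairpins of at least 10 CPM, the highest Pearson correlations of log2 CPM were 0.33 with miR-1224, 0.32 with let-7e and 0.32 with miR-181d. The fitted log2 ratios of these 3 hairpins were 0.09, 0.04 and 0.03. The lowest correlations were -0.35 with miR-153 and -0.34 with miR-211. Once time point means were removed, miR-671 (0.48), miR-582 (0.48) and miR-125b-1 (0.46) came first. All hairpins of a library share its depth and scaling, so these correlations are descriptions.

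miR-6236 and miR-6240, whose reads can resemble ribosomal RNA, varied widely between libraries. Over the 78 libraries the correlation of miR-5099 with miR-6236 was -0.02 on the log2(CPM + 1) scale. The median of miR-6236 at ZT15 was 5426 CPM, against 878.7 to 3134 CPM at the other time points. Its curve had a log2 ratio of 0.78 ± 0.40 (adjusted p = 0.986 by edgeR), and that of miR-6240 0.23 ± 0.44. With ZT as a factor, which allows any course over the day, edgeR called 7 hairpins (1.78%), and miR-6236 was among them.

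The 5 members of the miR-200 family and the 3 of the miR-183 cluster had the largest fitted curves in cortex. None passed in the edgeR fit of a cosine plus sine alone to all 78 libraries. The miR-200 family marks epithelial cells and represses Zeb1 and Zeb2. The miR-183 cluster is known from sensory cells and from retina, where it follows light. The log2 ratios were 2.30 ± 0.58 for miR-200c, 2.18 ± 0.57 for miR-96, 1.98 ± 0.60 for miR-141 and 1.97 ± 0.56 for miR-200a (SE, n = 78). They were 1.93 ± 0.51 for miR-183, 1.90 ± 0.54 for miR-429, 1.86 ± 0.50 for miR-200b and 1.86 ± 0.51 for miR-182. The fitted peaks lay together, between ZT17.0 and ZT17.8. All 8 had an unadjusted p under 0.05, and their adjusted p by edgeR ran from 0.0829 to 0.262.

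These 8 hairpins were high in the same libraries. Their 28 pairwise correlations of log2 CPM over the 78 libraries were 0.79 to 0.99, with a median of 0.89. Their summed level had a median of 1207 CPM and ranged from 165.5 to 29969 CPM. In 5 libraries it exceeded 5 times the median. These were ZT15 replicate 1 with 29969 CPM, ZT12 replicate 4 (36 h) with 16303, ZT21 replicate 2 with 14523, ZT3 replicate 4 (27 h) with 8390 and ZT12 replicate 12 (12 h) with 6315. The high libraries thus fell at 12, 15, 21, 27 and 36 h, and no time point had more than 1.

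miR-182, the most abundant of the 8, shows the spread by time point. Its lowest, median and highest levels at 6 h were 185.6, 330.0 and 1082 CPM, and at 9 h 194.8, 436.2 and 1317. At 15 h they were 187.4, 551.4 and 23573 CPM, so the median at that time lay under the cortex median of 1051 CPM. At 18 h they were 978.6, 1610 and 4080 CPM, at 21 h 807.4, 2533 and 11681, and at 30 h 637.2, 1021 and 3780. The ranges at 18 and 21 h overlap those at 6, 9 and 30 h.

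miR-96, the scarcest of the cluster, stood at 138.7 CPM in ZT15 replicate 1, while the other 5 libraries of ZT15 had a median of 0.576 CPM. miR-200c, the scarcest of the family, stood at 92.5 CPM there against a median of 1.73 CPM in the others. Without that library the log2 ratios of the 8 hairpins ran from 1.04 for miR-200b to 1.49 for miR-96, with 1.45 for miR-200c. The adjusted p of all 8 was then 0.990 by edgeR, while the unadjusted p ran from 0.0284 for miR-96 to 0.116 for miR-141. With all 5 high libraries left out, a choice made after seeing the data, the ratios of the 8 lay between 0.68 and 1.12 and the adjusted p was 0.994. In 0 to 21 h alone the log2 ratio of miR-96 was 3.60 (adjusted p = 0.00958) and that of miR-182 2.84 (0.0220), while in 15 to 36 h alone they were 1.45 (0.427) and 1.11 (0.545). With passage as a term in all 78 libraries (6 calls, 1.53%), miR-96 had 3.10 and miR-182 2.67 (adjusted p = 0.00514 for both), miR-183 2.63 (0.00746) and miR-200c 2.85 (0.0178). With elapsed time as a term (6 calls, 1.53%) the same 4 passed, at adjusted p of 0.0238 to 0.0362. With ZT as a factor (7 calls, 1.78%) miR-96, miR-200b, miR-200c and miR-429 passed. Without ZT3 replicate 4, one of the high libraries, all 8 and miR-211 passed together with miR-5099.

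**Figure D3:**
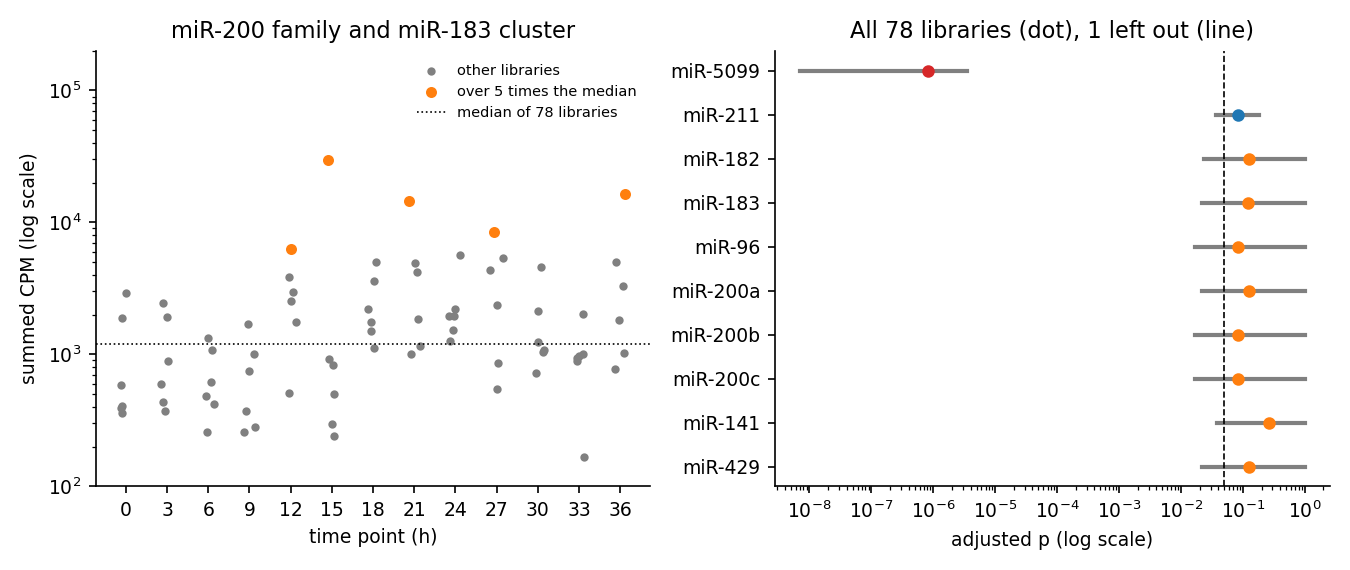
Left, the summed level of the miR-200 family and the miR-183 cluster in CPM (log scale) in each cortex library by time point, with the 5 libraries over 5 times the median of 1207 CPM in orange. Right, the edgeR adjusted p (log scale) of 10 hairpins with all 78 libraries (dot) and its range with each library left out (line); miR-5099 stays under 0.05 (dashed) and the other 9 cross it.

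In the other tissues the same 8 hairpins gave no called rhythm. In liver their log2 ratios ran from 0.03 to 0.18, and in hypothalamus from 0.10 to 2.80 with unadjusted p from 0.118 to 0.983. The hypothalamus peaks lay between ZT1.64 and ZT3.83 for the miR-200 family and between ZT18.6 and ZT20.6 for the miR-183 cluster. The striatum ratios of the 6 that passed its filter ran from 0.90 to 1.26, with peaks between ZT15.4 and ZT19.1. The interaction test of the difference in rhythm between cortex and liver gave adjusted p of 0.0971 to 0.129 for the 8 over 409 hairpins. That between cortex and hypothalamus gave an adjusted p of 0.999 over 410, with unadjusted p from 0.0064 for miR-200c to 0.0932 for miR-183.

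miR-211, of an intron of the ion channel gene Trpm1, had a fitted peak far from that of miR-5099 and did not pass. Its log2 ratio was 0.77 ± 0.20 with a peak at ZT21.5 and an adjusted p of 0.0829 by edgeR. It passed with passage as a term (0.86, adjusted p = 0.0186), with elapsed time as a term (0.82, adjusted p = 0.0362) and in DESeq2 (adjusted p = 0.0456). It was scarce, with 1.62 to 44.2 CPM and a median of 10.8. At 0 h it stood at 6.01, 12.9 and 35.2 CPM (lowest, median and highest of 6), and at 9 h at 6.85, 9.07 and 15.4. At 21 h it stood at 7.94, 14.1 and 25.7 CPM, at 24 h at 10.6, 19.4 and 44.2, and at 33 h at 4.26, 8.48 and 19.3. The ranges of these times overlap.

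miR-204 and miR-211 were only weakly correlated across libraries, and ZT0 replicate 1 was high in both. Choroid plexus is the epithelium that makes cerebrospinal fluid. The list of choroid plexus and ciliated cells, which includes miR-34 and miR-449 hairpins, held 10 miRNAs, of which 9 were tested. Their median log2 ratio was 0.51, against 0.092 over all 393 hairpins. No member was called by edgeR in all 78 libraries (0.254% of all hairpins were), and 1, miR-211, had an unadjusted p under 0.05. miR-448 (0.73 ± 0.35) and miR-1912 (0.84 ± 0.47), both in introns of Htr2c, and miR-1298 (0.60 ± 0.35) had fitted peaks at ZT19.3 to ZT19.4 and adjusted p of 0.986. The list summed to 4337 to 52014 CPM, with a median of 6191, and ZT0 replicate 1 held the highest value. miR-211 and miR-204 correlated at r = 0.22 on the log2(CPM + 1) scale over 78 libraries and at 0.04 without ZT0 replicate 1. Without the 3 libraries that stood apart the ratio of miR-211 was 0.67 (adjusted p = 0.596).

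The remaining 6 hairpins with an unadjusted p under 0.05 had small curves, apart from miR-5119. miR-5119, in an intron of Cdk12, had a log2 ratio of 1.18 ± 0.37 with its peak at ZT17.5 (adjusted p = 0.200 by edgeR) at a mean of 5.10 CPM. Its medians were 9.91 CPM at 18 h and 8.86 at 21 h, against 1.94 to 7.001 at the other time points. In 0 to 21 h alone the ratio was 0.91 (adjusted p = 0.509), and in 15 to 36 h alone 2.18 (adjusted p = 8.389e-04).

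miR-7b, a neuronal and neuroendocrine miRNA, had 0.22 ± 0.08 with a peak at ZT8.65 (adjusted p = 0.650 by edgeR). In 0 to 21 h alone it had 0.089 (adjusted p = 0.856), and in 15 to 36 h alone 0.36 (adjusted p = 0.0487). The red blood cell miRNA miR-451a had 0.27 ± 0.10 at ZT13.4 (adjusted p = 0.871). miR-3059, in an intron of Mgat4c, had 0.18 ± 0.06 at ZT20.4 (adjusted p = 0.516), and it passed with ZT as a factor (adjusted p = 0.0330). miR-665 and miR-370, both of the imprinted Dlk1-Dio3 cluster, had 0.17 ± 0.06 at ZT7.47 and 0.10 ± 0.04 at ZT8.10. Of all 16 hairpins, 10 had their peak between ZT12 and ZT18, 4 between ZT6 and ZT12 and 2 between ZT18 and ZT24. The 10 include every member of the miR-200 family and the miR-183 cluster. Those were high in the same libraries, so the 10 are not separate cases. Over all 393 the 4 spans of 6 h from ZT0 on held 101, 100, 104 and 88 peaks.

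For most hairpins the data set an upper bound on any 24 h curve. The upper 95% bound of the peak-to-trough ratio lay under 1.5-fold for 315 of the 393 (80.2%) and under 2-fold for 368 (93.6%). Among the 81 hairpins with a mean of at least 1000 CPM it lay under 1.5-fold for 76. Below 10 CPM it did so for 46 of 86, so for the other scarce hairpins a 1.5-fold curve lay within the bound. Whether depth or the spread between animals set these bounds was not tested.

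**Figure D4:**
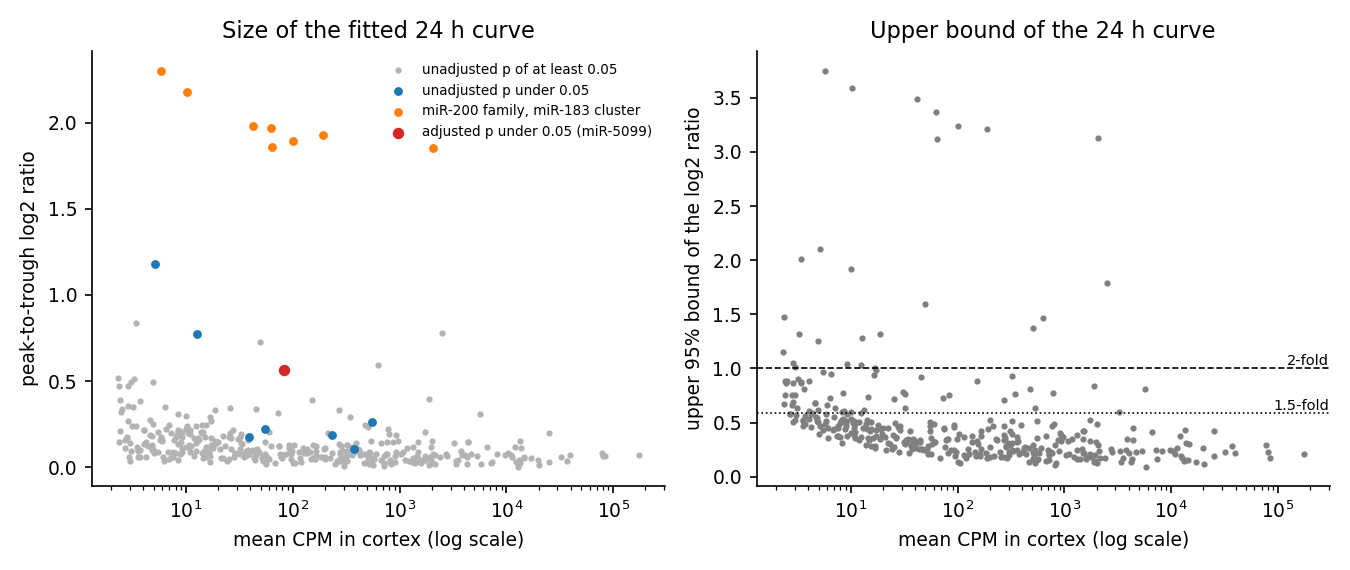
Left, the fitted peak-to-trough log2 ratio of each of 393 hairpins against its mean CPM in cortex (log scale), with miR-5099 in red, the 8 hairpins of the miR-200 family and the miR-183 cluster in orange and the other 7 with an unadjusted p under 0.05 in blue. Right, the upper 95% bound of that ratio, which lies under 1.5-fold (dotted) for 315 hairpins and under 2-fold (dashed) for 368.

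The 10 most abundant cortex hairpins were bounded closely. miR-127, which alone took 17.4% of the counts, had a log2 ratio of 0.07 ± 0.06, and its upper bound was 1.16-fold. miR-22 (0.06 ± 0.04, upper bound 1.13-fold) and miR-29a (0.01 ± 0.04, upper bound 1.09-fold) were also flat within these bounds. miR-143, of smooth muscle and vessel walls, had the highest bound of the 10, 1.34-fold.

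The clock-linked miRNAs, listed for their links to clock genes in the literature, were fitted much like all hairpins, apart from the miR-183 cluster. Of 40 listed, 36 were tested and 0 were called by edgeR, where 0.254% of all hairpins were, so that 0 is no result about the list. DESeq2 called 3, miR-96, miR-182 and miR-183. At the unadjusted threshold 3 had p under 0.05, the same 3 of the miR-183 cluster, against 4.07% of all hairpins. Their median log2 ratio was 0.085, against 0.092 over all 393. miR-132, induced by neuronal activity, had 0.12 ± 0.10 with an upper bound of 1.30-fold, and its neighbour miR-212 had 0.04 ± 0.06 with 1.15-fold. By time point the medians of miR-132 lay between 9946 CPM at 24 h and 15550 CPM at 3 h. miR-219a-2, which is linked to clock period in mouse and to oligodendrocyte maturation, had 0.18 ± 0.08 with a peak at ZT4.30 (p = 0.0739 unadjusted, adjusted p = 0.986).

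The lists of cells and states held no hairpin called by edgeR in all 78 libraries, where 0.254% of all hairpins were called and 4.07% had an unadjusted p under 0.05. Their counts at the unadjusted threshold were 0 to 2. In the short lists 1 hairpin is a large share, so these counts are no result about the lists. The miR-200 family, the miR-183 cluster and the choroid plexus list are described above and not counted here. Of the 7 sleep and wake linked hairpins (median log2 ratio 0.092), the 3 activity-regulated (0.050) and the 3 of oligodendrocytes (0.16), 0 had an unadjusted p under 0.05. Of 22 neuronal hairpins (0.093) 1 did, miR-7b. Of 6 immune hairpins (0.14) and 5 of vessel and mural cells (0.20) 0 did, and of 4 erythroid ones (0.22) 1 did, miR-451a. Of 5 endocrine hairpins (0.22) 1 did, again miR-7b, and of 4 of liver (0.14) 0 did. Of 45 tested hairpins of the Dlk1-Dio3 cluster (0.078) 2 did, and of 4 of the miR-29 family (0.090) and 7 of the miR-15/16 family (0.084) 0 did. The 2 ribosomal RNA-like hairpins (0.51) gave 0.

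The cortex curve of miR-5099 was not shown to differ from that in any other tissue. Its log2 ratio was 0.57 ± 0.08 in cortex, against 0.68 ± 0.10 in hypothalamus (n = 72), 0.49 ± 0.18 in striatum (n = 46) and 0.60 ± 0.08 in liver (n = 77). Fitted in each tissue alone, the curve passed in hypothalamus (adjusted p = 2.268e-06 by edgeR) and in liver (6.2e-08). In striatum alone it did not pass (unadjusted p = 0.0269, adjusted p = 0.998 by edgeR). Striatum had no library at ZT15 and only 2 at ZT18. Its library of ZT9 replicate 6 held 26341 counts. At that depth an undetected hairpin may still stand at up to 113.9 CPM, above the striatum mean of miR-5099, 73.6 CPM. The striatum values given here thus rest on a less even cover of the day than those of the other tissues. Interaction tests in edgeR gave adjusted p of 0.999 against hypothalamus, 0.967 against striatum and 0.492 against liver. The difference curve had an upper 95% bound, in log2 ratio, of 0.44 against hypothalamus, 0.72 against striatum and 0.48 against liver. Against liver the unadjusted p was 0.165, and it was 0.0209 with RLE size factors and 0.00538 with library totals, where the adjusted p was 0.249 and 0.110. The peak of miR-5099 lay at ZT8.38 (SE 0.503 h) in cortex and at ZT6.33 (SE 0.456 h) in liver.

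Across all hairpins the cortex rhythm differed from that of liver for 6 of 409 (1.47%) and from that of striatum for 2 of 418 (0.478%). At an unadjusted p under 0.05 the shares were 14.7% against liver and 5.74% against striatum. Against hypothalamus 0 of 410 passed (edgeR), with 9 at an unadjusted p under 0.05 (2.20%). Most animals gave both tissues of a pair, which the edgeR test does not use. In limma voom with the animal as a block, 0 passed against hypothalamus, 0 against striatum and 3 against liver, namely miR-150, miR-29b-1 and miR-376b. In each of these 8 the cortex log2 ratio was at most 0.18 and the ratio in the other tissue was larger. The lymphocyte miRNA miR-150 had a log2 ratio of 0.16 ± 0.18 in cortex, against 1.32 ± 0.15 in liver (adjusted p of the difference = 0.00599). miR-29b-1, of a family that represses collagens, had 0.18 ± 0.11 in cortex, against 1.66 ± 0.19 in liver (adjusted p = 1.11e-07). This hairpin was scarce, with a mean of 12.98 CPM in cortex and 4.86 CPM in liver. In liver 3 counts stand for 0.573 to 1.51 CPM, so its liver curve rests on low counts. It shares its mature sequence with miR-29b-2, and how reads of both copies were counted is not stated.

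The blood cell miRNA miR-142a had 0.04 ± 0.07 in cortex, against 0.54 ± 0.08 in liver (adjusted p = 0.0392), a difference that did not pass with the animal as a block. miR-874 had 0.04 ± 0.05 in cortex, against 0.29 ± 0.08 in liver (adjusted p = 0.0431), and this difference passed in 0 of 5 alternatives. miR-376b and miR-379, both of the Dlk1-Dio3 cluster, averaged 754.2 and 519.7 CPM in cortex, against 1.90 and 3.77 CPM in liver, close to the level of 3 counts (adjusted p of the difference = 0.00848 and 0.0392). The difference of miR-376b passed in 5 of 5 alternatives and that of miR-379 in 1. miR-195a and miR-497a, which share a transcript, had 0.09 ± 0.10 and 0.16 ± 0.19 in cortex, against 2.35 ± 0.53 and 2.55 ± 0.53 in striatum (adjusted p = 7.841e-05 for both). Without the libraries that stood apart, 4 of them in striatum, 0 differences from striatum passed, as with the animal as a block.

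Most animals gave several tissues, and an animal with more miR-5099 in cortex than others of its time point tended to have more in liver by rank. With time point means removed, Pearson's r was 0.17 and Spearman's rho 0.30 over 77 animals (permutation p = 0.117 and 0.0111, adjusted over 3 tissues 0.350 and 0.0332). Without the 2 animals farthest from the cortex median r was 0.26. With the library run also removed r was 0.33 and rho 0.43 (adjusted permutation p = 0.00969 and 0.00153). Over 72 animals the values for cortex and hypothalamus were r = 0.09 and rho = 0.11 (adjusted permutation p = 0.631 and 0.548). Over 45 animals those for cortex and striatum were r = 0.06 and rho = -0.0016 (0.697 and 0.992). Striatum did not cover every time point and held a library of very low depth, as stated above.

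**Figure D5:**
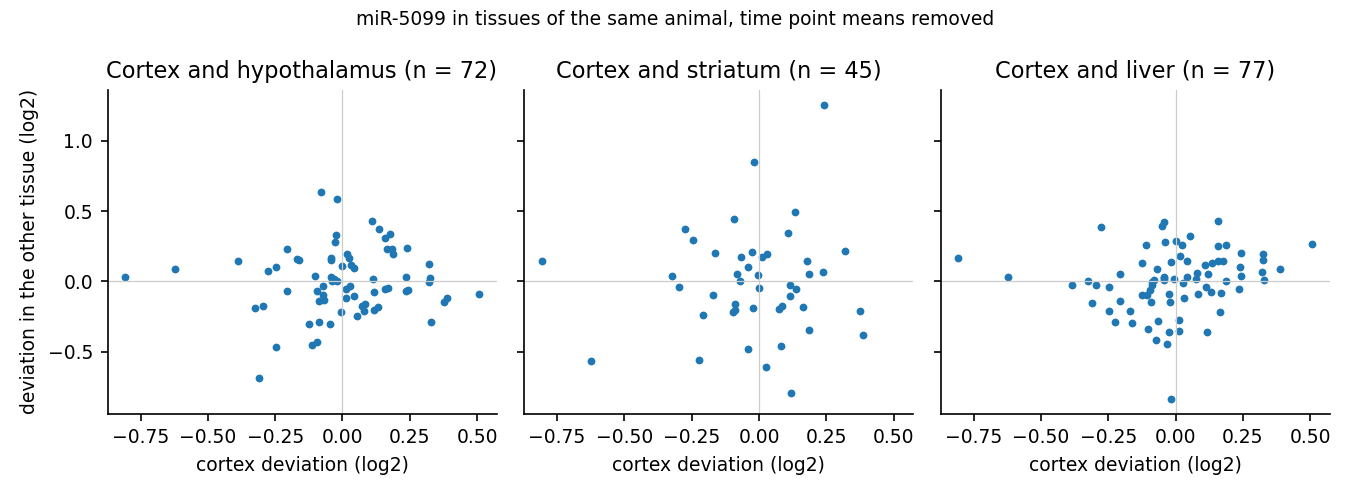
Log2 CPM of miR-5099 after removal of time point means, with cortex on the x axis and the other tissue of the same animal on the y axis, a dot for each animal. Spearman's rho is 0.11 for hypothalamus (n = 72), -0.0016 for striatum (n = 45) and 0.30 for liver (n = 77).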

How the data were processed

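The authors deposited 1 table per tissue of whole-number counts per miRNA hairpin with no normalization, and the submitters' processing notes name HTSeq 0.10.0 and STAR 2.7.3a with mouse build GRCm38. Trimming, miRBase release and treatment of reads with several matches are not given in the sources used here, so hairpins with several copies are uncertain. Per the labels' protocols, RNA came from miRNeasy kits and small RNA was enriched before Illumina library preparation. Groups and times came from the labels.

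Counts were fitted in edgeR 4.0.16 (R 4.3.3) with TMM scaling, filterByExpr on the design, a cosine and a sine of 24 h and a quasi-likelihood F test, and p-values were adjusted by Benjamini-Hochberg with 0.05 as the threshold. Ratios are peak over trough of the fitted curve with delta-method SEs, and 95% bounds come from the joint region of both coefficients. Levels are CPM of the library total. Rhythm differences between tissues are interaction tests. Alternatives used DESeq2 1.42.0 and limma 3.58.1. Correlations used log2 CPM with a prior count of 2 unless stated. Cortex samples are different animals per the labels' animal numbers, and library runs are read from the labels' numbers. Scripts were tested on simulated data.

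Hairpins named are those called or with an unadjusted p under 0.05, the 10 most abundant, set members of each list and those most like miR-5099. The called tissue differences fall outside this rule and were named after their values were seen. The members and lists were chosen with earlier results of these data known. Of 393 tested hairpins, 329 were placed by RefSeq symbol (GRCm38.p6), and host genes came from the GENCODE annotation.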

Additional observations from a re-analysis of the deposited data

Results flagged for a closer look

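In groups of 6 libraries (ZT15, ZT18 and ZT21), 48 combinations of hairpin and ZT were examined for a library far from the others. They cover the 16 hairpins with an unadjusted p under 0.05 in the rhythm test of these same libraries. Independent combinations would give about 1 flag in 20 by chance, or 2.4. These are not independent, since 8 of the hairpins were high in the same libraries, so the 19 flags found cannot be set against 2.4. In ZT15 replicate 1 all 8 hairpins of the miR-200 family and the miR-183 cluster stood far above the other libraries. The values were 92.5 CPM for miR-200c, 138.7 for miR-96, 961.9 for miR-200b, 2227 for miR-183, 1540 for miR-429, 23573 for miR-182, 884.5 for miR-200a and 551.6 for miR-141. In ZT21 replicate 2 the same 8 stood high, at 42.4 CPM for miR-200c, 81.5 for miR-96, 356.4 for miR-200b, 1057 for miR-183, 669.3 for miR-429, 11681 for miR-182, 375.9 for miR-200a and 259.2 for miR-141. miR-211 was low in ZT15 replicate 2 (3.24 CPM) and high in ZT18 replicate 4 (36.1 CPM), and miR-7b was high in ZT21 replicate 4 (73.1 CPM).

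The rhythm of 6 hairpins differed between cortex and liver, and that of 2 between cortex and striatum, by the interaction test of edgeR. With the animal as a block in limma voom, since most animals gave both tissues, the counts were 3 and 0.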

How the results depend on the processing

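miR-5099 stayed called in cortex in 17 of 18 alternatives and with each of the 78 libraries left out; the exception is the 12 h test, which asks for another period (adjusted p = 0.483). The count of hairpins called, 1 in all 78 libraries, was also 1 with limma voom, RLE, library totals, no filter, a mean of at least 10 CPM, robust dispersion, run or log2 total as a term, and without the libraries that stood apart or were high in the miR-200 and miR-183 hairpins. It was 8 with DESeq2, 6 with passage or elapsed time as a term, 6 in 0 to 21 h alone, 5 in 15 to 36 h alone, 7 with ZT as a factor and 0 for 12 h. Of the 8 by DESeq2, 6 belong to the miR-200 family or the miR-183 cluster and 1 is miR-211. With 1 library left out it was 1 to 10: 10 without ZT3 replicate 4, and 3 without ZT3 replicate 1, ZT3 replicate 5 or ZT6 replicate 7, where miR-200c and miR-96 joined. The cause was not tested. With the replicate number as a block 7 were called: miR-5099, miR-211, miR-146a, miR-192, miR-665, miR-667 and miR-1306. The numbers were not taken as pairs. Same-numbered libraries correlated at 0.14 on average over 228 pairs, with a lowest value of -0.49, against -0.012 for other numbers, and 14 of 78 correlated best with their own number. The replicate number follows the library number (rho = 0.89). Differences from liver numbered 3 with no filter and 3 with limma voom and the animal as a block, and differences from striatum 0 without libraries that stood apart and 0 with that block. Pearson's r over animals for cortex and liver was 0.33 with run removed. Of 267 combinations of the other 15 hairpins and an alternative 29 passed, and 15 of 1170 with 1 library left out. The permutation test and the differences of miR-5099 between tissues kept their side of the threshold in every alternative run. Below 10 CPM the upper bounds of the curves were wider, and what set them was not tested.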
